A study of Mus musculus with 4 samples.

Results

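The genes described here make and sense 2 kinds of lipid mediator, the prostaglandins and the leukotrienes, and carry the annexin A1 signal that helps to end inflammation. The set holds 10 genes of the 32285 listed in the single-cell matrices, found by symbol: Pla2g4a, Ptgs1, Ptgs2, Ptges, Alox5, Alox5ap, Ltb4r1, Anxa1, Fpr1 and Fpr2. All 10 were found once in each of the 4 matrices. Single-cell RNA-Seq was run on fracture callus and on trabecular bone of 20-week-old C57BL/6J male mice that received prednisolone, a synthetic glucocorticoid (GC), at 6.25 mg/kg/d, or a placebo (control). Tissue was collected at week 2. Per the labels, prednisolone or placebo came from a slow-release pellet under the skin in every sample, whereas the study's text describes daily injection in the mice with a fracture. No genotype other than the strain is given, and the number of mice behind each library is not given in the sources used here.

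There was 1 library for each tissue and condition, so no comparison of GC with control has a replicate check and none carries a p-value. Levels are in CPM, the unique molecular identifiers (UMIs) of a gene scaled to all UMIs of its cell class in that library, and ratios are GC over control. Their 95% intervals (exact Poisson for levels, exact conditional for ratios) cover counting error only, not the difference between mice or between library preparations. A pair of gene and class was called higher or lower in GC when it held at least 50 UMIs over both libraries and differed at least 2-fold after adding 5 CPM to each value. The log2 ratios below are on that scale and understate changes of low genes, whereas plain ratios are without the added 5 CPM.

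In callus the control library had 95852254 UMIs and the GC library 64388215, and 6683 and 6890 of their cells were kept. In trabecular bone the totals were 41239842 UMIs in control and 45876714 in GC, with 3747 and 4592 cells. Between 6 and 10 cell barcodes were shared by any 2 libraries, at most 0.240% of the smaller one. Cell classes were named from marker lists, so each name stands for a marker-defined class. Classes with at least 20 cells of each library, 16 in callus and 8 in trabecular bone, were compared. Callus granule-stage neutrophils had no single cluster of that size, with 6 and 148, 107 and 3, and 17 and 32 control and GC cells. Ratios of that class therefore set largely different clusters against each other. The GC callus matrix lists only barcodes of at least 500 UMIs, so the free RNA of its empty droplets could not be measured. In callus, 872 GC cells and 211 control cells stayed without a class name. The trabecular libraries held mostly blood cells and their precursors. Mature neutrophils made up 38.2% of control and 43.6% of GC cells and granule-stage neutrophils 27.2% and 24.2%, whereas 16 cells were stromal and no osteoblast class was found.

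As background, cytosolic phospholipase A2 (Pla2g4a) frees arachidonic acid from membranes. Cyclooxygenase 1 (Ptgs1), present in many cells at rest, and cyclooxygenase 2 (Ptgs2), which is induced by cytokines and growth signals, turn it into prostaglandin H2, and microsomal prostaglandin E synthase 1 (Ptges) makes prostaglandin E2 from that. Alternatively 5-lipoxygenase (Alox5), helped by its activating protein FLAP (Alox5ap), starts the path to leukotriene B4, a neutrophil attractant that is sensed by the receptor BLT1 (Ltb4r1). Annexin A1 (Anxa1) is a protein of myeloid cells long linked to the anti-inflammatory action of glucocorticoids. It acts on the formyl peptide receptors Fpr1 and Fpr2, which also sense bacterial formyl peptides. Prostaglandin E2 made through cyclooxygenase 2 is needed for normal fracture repair.

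Ptgs2 (chr1:150100031-150108227, + strand) and Pla2g4a (chr1:149829618-149961290, - strand) lie near each other on chromosome 1 of GRCm38. Fpr1 (chr17:17876471-17883940, - strand) and Fpr2 (chr17:17887824-17893952, + strand) stand head to head on chromosome 17, with 3883 bases and 0 annotated genes between their start sites. The promoters of Ptgs2, the gene with the most callus differences, and of the Fpr1 and Fpr2 pair, whose levels followed each other most closely, are shown as the 250 bases before each RefSeq start site, 5′ to 3′ on the strand of the gene (RefSeq on GRCm38.p6). The windows are chr1:150099781-150100030 for Ptgs2, chr17:17883940-17884189 for Fpr1 and chr17:17887574-17887823 for Fpr2. Capitals mark the palindrome TTGCGCAA, a C/EBP recognition sequence, in Ptgs2, and the string TATAAA in Fpr1 and Fpr2.
Ptgs2: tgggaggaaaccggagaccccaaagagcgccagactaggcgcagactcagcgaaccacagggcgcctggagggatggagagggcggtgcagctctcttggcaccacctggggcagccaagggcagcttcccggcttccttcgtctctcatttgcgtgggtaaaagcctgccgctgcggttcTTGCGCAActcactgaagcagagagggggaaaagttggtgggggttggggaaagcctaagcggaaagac
Fpr1: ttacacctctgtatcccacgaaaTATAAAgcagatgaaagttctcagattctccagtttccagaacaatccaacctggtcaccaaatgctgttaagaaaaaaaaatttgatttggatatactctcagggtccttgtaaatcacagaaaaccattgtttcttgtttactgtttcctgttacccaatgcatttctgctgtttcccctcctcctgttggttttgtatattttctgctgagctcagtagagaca
Fpr2: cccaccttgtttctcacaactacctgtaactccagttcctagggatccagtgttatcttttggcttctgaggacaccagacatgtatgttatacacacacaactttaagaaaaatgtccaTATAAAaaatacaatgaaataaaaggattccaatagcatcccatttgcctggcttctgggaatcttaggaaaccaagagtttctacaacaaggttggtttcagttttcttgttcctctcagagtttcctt
The palindrome began 69 bases before the Ptgs2 start and reads the same on both strands. It was found, with both strands searched, in 54 of 32536 promoter windows (0.166%), and of the windows of these genes only in that of Ptgs2. TATAAA, held by 12.3% of all windows, began 227 bases before the start in Fpr1 and 130 bases before it in Fpr2, and it was also in those of Anxa1 (32 bases before the start) and the second Pla2g4a promoter. The hexamer AGAACA, the core of the glucocorticoid receptor element, was in the windows of Ptgs1, Ptges, Fpr1 and the second Pla2g4a promoter, against 16.0% of all windows. The full palindromic element (AGAACA, 3 free bases, TGTTCT) was in none of them and in 3 windows in all. The promoter table held 9 of the 10 genes. Such a match is a string of letters and not evidence of binding.

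The set divided between the skeletal cells of the callus and the myeloid cells of both tissues. Pla2g4a, Ptgs2 and Ptges, the prostaglandin E2 branch, were at their highest in callus chondrocytes of the hypertrophic class in both conditions. Alox5ap, Fpr1 and Fpr2 were highest in neutrophils, Ltb4r1 in trabecular granule-stage neutrophils (those expressing the genes of the specific granules), and Alox5 in trabecular mast cells or basophils. Anxa1 was highest in granule-stage neutrophils in the control library of trabecular bone, and in its GC library these and the mast cells or basophils had nearly the same level. Ptgs2 and Anxa1 were both over 40 CPM in chondrocytes as well as in mature neutrophils of callus.

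**Figure D1:**
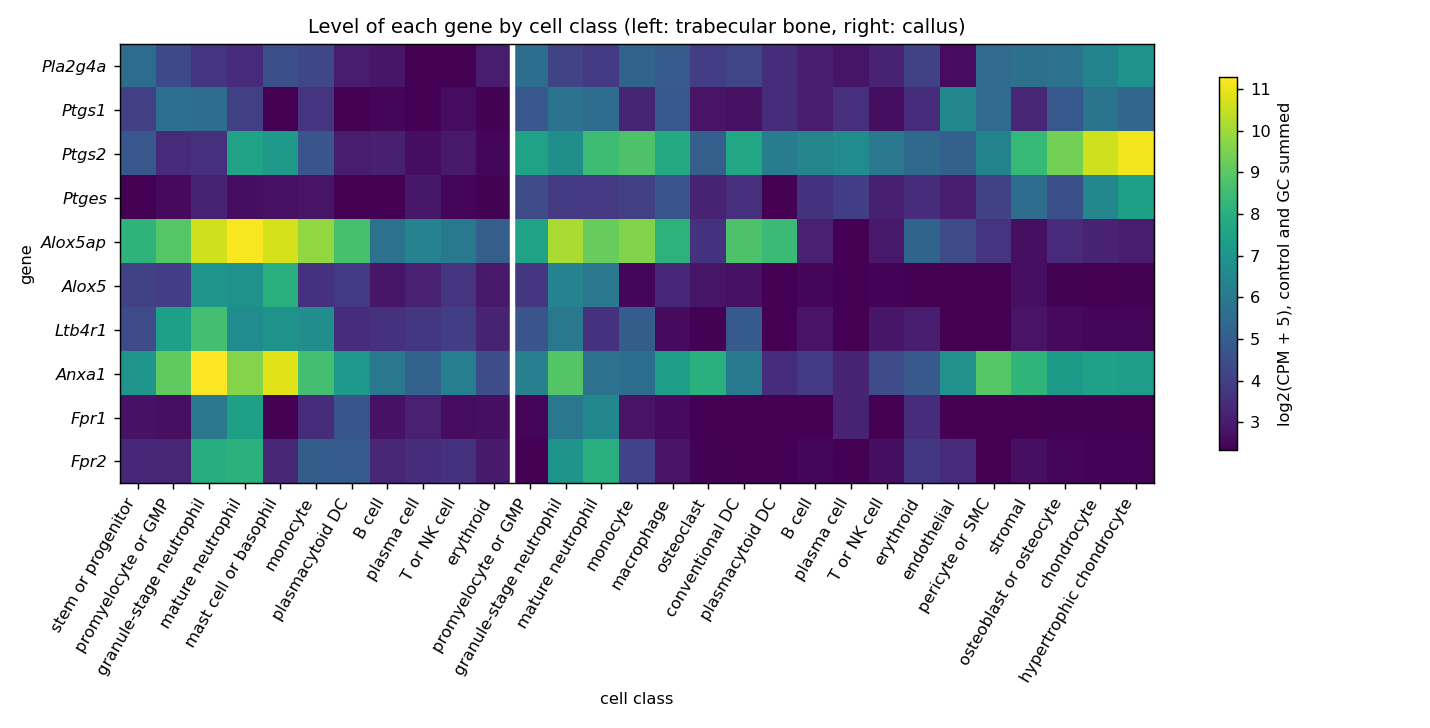
Heat map of log2(CPM + 5) of the 10 genes (rows) in each named class of at least 20 cells, trabecular bone left and callus right. Control and GC libraries are summed in each column. The prostaglandin genes Ptgs2, Ptges and Pla2g4a are strongest in callus chondrocytes, and Alox5ap, Ltb4r1, Fpr1 and Fpr2 in neutrophils.

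Most of the 10 genes differed little between GC and control. In callus, 160 pairs of gene and class were formed, of which 55 had enough UMIs, and 0 were called higher in GC, against 1.53% of all 84541 pairs of gene and class over the same minimum. In the same tissue 3 pairs (5.45%) were called lower, against 1.85% of all pairs. Those 3 were Ptgs2 in mature neutrophils, in osteoclasts and in stromal cells. In trabecular bone, 46 of 80 pairs had enough UMIs, and 2 (4.35%) were called higher, Ptgs2 in mast cells or basophils and Fpr2 in monocytes, against 1.15% of all 47180 pairs. Another 3 trabecular pairs (6.52%) were called lower, Anxa1 in T or NK cells, Ptgs2 in granule-stage neutrophils and Anxa1 in stem or progenitor cells, against 1.40% of all pairs. With counts of 0 to 3 these shares are set beside the background as a description. The calls in mature neutrophils and monocytes rested on many cells. Of the others, stem or progenitor Anxa1 lost the fold without its highest cells. Osteoclast Ptgs2 was under the level of callus B cells, although osteoclasts held far more UMIs per cell. The rest kept the fold without the 2 highest cells of each library, some from few UMIs.

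Pla2g4a, which starts the pathway, was a gene of callus chondrocytes. Its level was 130 CPM in control and 97.9 CPM in GC hypertrophic chondrocytes (1257 and 601 UMIs), a ratio of 0.754 (0.683 to 0.832). In the other chondrocytes it was 78.8 CPM in control and 76.0 CPM in GC (ratio 0.964, 0.914 to 1.02). Osteoblasts or osteocytes held 46.9 and 47.1 CPM, stromal cells 50.1 and 36.9 CPM, and callus monocytes 35.3 and 26.4 CPM. Thus no callus class over the minimum of 50 UMIs differed by as much as the 2-fold rule. Under that minimum, conventional dendritic cells had 2 and 14 UMIs and granule-stage neutrophils 10 and 1. Of the 5 classes named first the hypertrophic one alone had an interval of the ratio that excluded 1. Trabecular cells of the compared classes had little of it, at most 42.8 CPM in stem or progenitor cells and between 4.86 and 16.1 CPM in neutrophils, monocytes and promyelocytes of either library.

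Ptgs1, the constitutive cyclooxygenase, was spread thinly over classes that otherwise share little. It was highest in callus endothelial cells, with 80.4 CPM in control and 93.4 CPM in GC (35 and 40 UMIs, ratio 1.16, 0.719 to 1.88), and with both libraries summed was next in chondrocytes, at 50.9 and 47.5 CPM. In the GC library alone, callus granule-stage neutrophils stood above chondrocytes, at 69.5 CPM from 34 UMIs. In trabecular bone it followed the early stages of the neutrophil line, with 50.2 and 38.3 CPM in promyelocytes or granulocyte-monocyte progenitors, 44.3 and 38.1 CPM in granule-stage and 8.75 and 13.5 CPM in mature neutrophils. Callus mature neutrophils had 29.3 CPM in control and 54.9 CPM in GC (60 and 77 UMIs), the widest Ptgs1 ratio over the minimum at 1.88 (1.32 to 2.68). No Ptgs1 pair passed the 2-fold rule in either direction.

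Ptgs2, the inducible cyclooxygenase and the target of many anti-inflammatory drugs, gave the clearest difference of the set. In callus it was a cartilage gene. Hypertrophic chondrocytes held 2156 CPM in control and 2252 CPM in GC (20880 and 13824 UMIs), and the ratio was 1.04 (1.02 to 1.07). The other chondrocytes held 1434 CPM in control and 1936 CPM in GC, a ratio of 1.35 (1.34 to 1.37). Osteoblasts or osteocytes followed with 597 and 735 CPM (ratio 1.23, 1.16 to 1.31). These comparisons rest on clusters of unequal make-up, as 1 low-UMI chondrocyte cluster held 617 GC and 17 control cells. Summed over the 8 chondrocyte clusters with at least 20 cells of each library, the levels were 1444 CPM in control and 1860 CPM in GC, still higher in GC. These clusters were unequally filled too, with 582 control and 91 GC cells in 1 and 156 and 335 in another. In sums of the same kind the direction turned in hypertrophic chondrocytes, to 2366 and 2309 CPM (interval of the ratio 0.954 to 0.998). It also turned in osteoblasts or osteocytes, to 577 and 490 CPM (0.793 to 0.910). The part of the cluster mix in these sums was not tested. Callus cells left without a class had 1126 CPM in control and 1422 CPM in GC.

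In callus mature neutrophils the order was the other way. Ptgs2 stood at 491 CPM in control (461 to 523, 1007 UMIs in 1561 cells) and at 161 CPM in GC (141 to 184, 226 UMIs in 1209 cells). The log2 ratio was -1.58 and the plain ratio 0.328 (0.283 to 0.379), while the median log2 ratio of all 4824 genes over the minimum in that class was 0.00. It did not rest on single cells, since the highest cell held 12 of 1007 UMIs in control and 7 of 226 in GC. A UMI of Ptgs2 was seen in 33.7% of control and 14.6% of GC neutrophils. After each cell was thinned to 1000 UMIs, which left 1277 control and 841 GC cells, the shares were 28.0% and 12.6%, and their intervals did not overlap. In B cells, which should lack the gene and so measure free RNA, the thinned shares were 8.36% in control and 6.59% in GC at median depths of 1927.0 and 1681.0 UMIs (1269.0 and 1134.0 in neutrophils). Both neutrophil shares thus exceeded the background of their own library.

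The neutrophil difference was also present inside a single cluster. Mature neutrophils of callus fell into a cluster of 552 control and 1179 GC cells and another of 1009 control and 30 GC cells. Within the first, Ptgs2 was 467 CPM in control and 163 CPM in GC, a log2 ratio of -1.49. Over the whole class, the Ptgs2 difference passed the 2-fold rule in all 18 alternative processings that gave a value, with log2 ratios from -1.64 to -1.50. Beside it, other features of these cells moved too. The summed level of 11 dissociation and immediate early genes in the same class was 7176 CPM in control and 3078 CPM in GC, with 4 of the 9 measurable genes lower and 1 higher. The summed level of 9 chondrocyte markers, which neutrophils should lack, was 4575 CPM in control and 2061 CPM in GC, with none at 0, and in B cells it was 3654 and 1591 CPM. Ptgs2 in B cells itself was 89.7 and 61.7 CPM. Erythroid markers were at 887 CPM in control and 4827 CPM in GC. The part of these in the Ptgs2 difference was not tested.

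**Figure D2:**
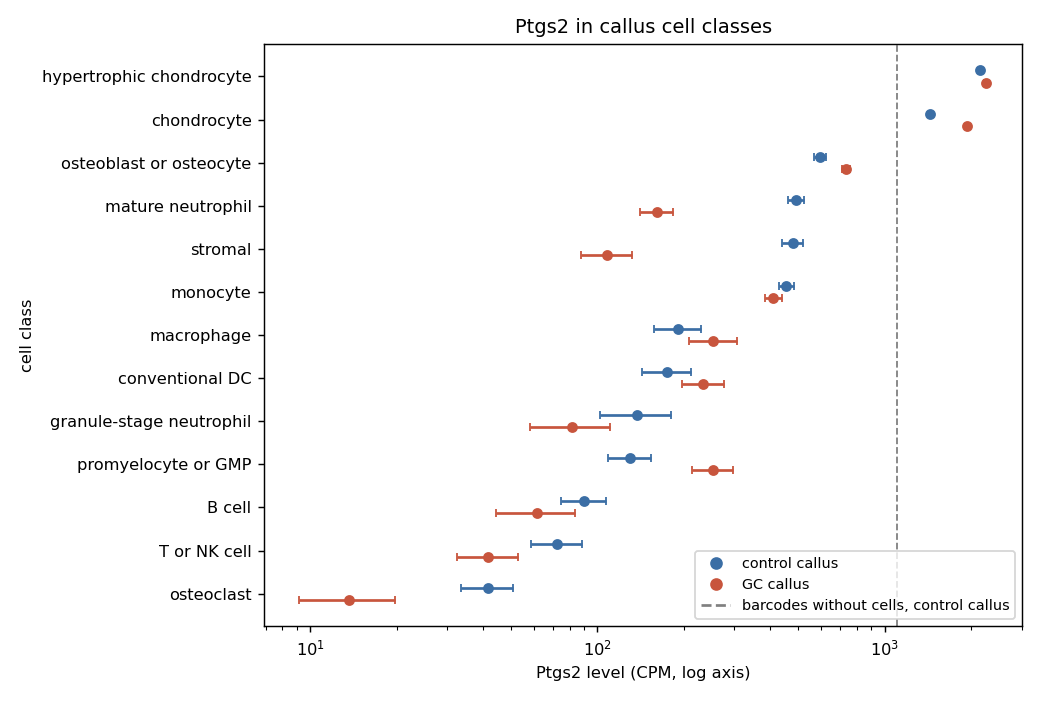
Ptgs2 in CPM by callus class, control and GC libraries, with exact Poisson 95% intervals as bars and the control empty-droplet level of 1106 CPM as a dashed line. Mature neutrophils and stromal cells are well below control in GC, whereas chondrocytes are not.

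Free Ptgs2 RNA was abundant in callus: barcodes of the control library that held no cell had 1106 CPM (1040 to 1175), close to the 1269 CPM over all its cells. This bears on the weak classes. Osteoclasts were called lower, with 41.5 CPM in control and 13.7 CPM in GC (92 and 28 UMIs), but both levels were under those of B cells in the same libraries, and the thinned shares, 2.70% and 0%, were under the B-cell shares as well. The median depth was 19244.5 UMIs in control and 15922.0 in GC osteoclasts, against 1927.0 and 1681.0 in B cells. The B-cell values are therefore not a like measure of free RNA for osteoclasts. Without thinning, 57 of 112 control and 26 of 121 GC osteoclasts had a UMI of Ptgs2. The part of free RNA in the osteoclast values was not tested. Stromal cells had 478 CPM in control and 108 CPM in GC (582 and 97 UMIs, log2 ratio -2.09, ratio 0.227, 0.181 to 0.281), but 2 of 87 control cells held 122 and 120 of the UMIs. The log2 ratio was -1.93 without the highest cell of each library and -1.70 without the 2 highest, and it ran from -3.10 to -0.67 over 17 alternatives. In stromal cells the chondrocyte markers were at 8345 CPM in control and 4344 CPM in GC, and their part was not tested. Callus granule-stage neutrophils, with 137 CPM in control and 81.8 CPM in GC (51 and 40 UMIs), were under the fold.

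Among the remaining callus classes, monocytes had 455 CPM in control and 410 CPM in GC (ratio 0.902, 0.822 to 0.989). Macrophages had 191 and 253 CPM and conventional dendritic cells 175 and 234 CPM, ratios of 1.32 and 1.34. The monocyte level was thus slightly lower in GC, and none of the 3 differed as much as mature neutrophils. The share of cells with a UMI of Ptgs2 was lower in GC in all 3, from 54.4% to 38.7% in monocytes, 44.0% to 27.4% in macrophages and 40.2% to 22.3% in dendritic cells. After thinning to 1000 UMIs the shares were 27.5% (23.7 to 31.6) and 20.9% (17.4 to 24.8) in monocytes, 15.3% and 9.72% in macrophages and 19.6% and 15.8% in dendritic cells, with overlapping intervals in each. In macrophages and dendritic cells the shares thus went against the CPM, and no order is read from them. Promyelocytes or granulocyte-monocyte progenitors had 130 CPM in control and 252 CPM in GC (136 and 152 UMIs), just under the fold at a log2 ratio of 0.93, and 20 of the 152 GC UMIs were in 1 cell. The chondrocyte markers were at 3514 CPM in control and 3259 CPM in GC in this class, against 3654 and 1591 CPM in B cells. The part of such cartilage RNA in the Ptgs2 value was not tested.

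Trabecular bone, where no chondrocytes were found, had much less Ptgs2. Mature neutrophils had the highest level in the control library, with 227 CPM in control (216 to 238) and 130 CPM in GC (123 to 138), a ratio of 0.575 (0.532 to 0.622) that did not reach the 2-fold rule. The log2 ratio was -0.78, beside a median of 0.28 for all genes over the minimum in that class. Here the libraries split by cluster. The main control cluster (1086 control and 52 GC cells) had 312 CPM in control and 65.6 CPM in GC, and 5 clusters without control cells ranged from 8.12 to 157 CPM. A further cluster, of 452 GC cells and 1 control cell and led by Il1b, Cxcl2 and Nlrp3, had 615 CPM (573 to 661). The class value is therefore an average over GC clusters that differed widely. Granule-stage neutrophils were called lower, 10.3 CPM in control and 2.60 CPM in GC (110 and 28 UMIs, log2 ratio -1.01), and were past the fold in 11 of 17 alternatives. Of their 110 control UMIs 63 were in a cluster with 285 control and 6 GC cells. The call in mast cells or basophils, 71.9 CPM in control and 195 CPM in GC (log2 ratio 1.38), rested on 20 and 66 UMIs, of which 15 and 36 were in 1 cell each. The log2 ratio was 2.01 without the highest cell of each library and 2.70 without the 2 highest. In this class of 29 control and 40 GC cells, markers of other cells were also higher in GC. The granule-stage neutrophil markers summed to 3217 and 9348 CPM (9 of 9 measurable past 2-fold), the mature neutrophil markers to 4562 and 10514 CPM (5 of 8) and the erythroid markers to 1265 and 12592 CPM (4 of 4). At 0 were 1 mature neutrophil marker in control and 1 granule-stage marker in GC, and 4 and 3 erythroid markers. The 11 dissociation and immediate early genes summed to 7096 CPM in control and 10203 CPM in GC, with 0 of 8 measurable past 2-fold. The part of these genes and of the markers was not tested.

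Ptges, which completes prostaglandin E2 synthesis, followed Ptgs2 across classes (Pearson r = 0.82 over 29 classes of both tissues, which share libraries and depth), but its GC ratios did not match those of Ptgs2 in chondrocytes. It was at 183 CPM in control and 142 CPM in GC in hypertrophic chondrocytes (1770 and 871 UMIs, ratio 0.776, 0.715 to 0.842) and at 94.1 and 64.3 CPM in the other chondrocytes (ratio 0.683, 0.647 to 0.721). Stromal cells had 52.6 CPM in control and 24.6 CPM in GC (64 and 22 UMIs, log2 ratio -0.96), just under the fold. In the other chondrocytes the paired enzymes of the branch thus stood on opposite sides of 1, with a Ptgs2 ratio of 1.35, both within 2-fold. In hypertrophic chondrocytes this held for the whole class only, since summed over shared clusters Ptgs2 was also slightly lower in GC, with Ptges at 213 and 149 CPM. In stromal cells both were lower. Neutrophils and monocytes had at most 12.2 CPM of Ptges in callus and 4.51 CPM in trabecular bone.

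Alox5ap, the partner protein of 5-lipoxygenase, had the broadest difference in trabecular bone, although it stayed just under the 2-fold rule. In mature neutrophils it was 1551 CPM in control (1522 to 1580) and 3005 CPM in GC (2968 to 3043), from 10994 and 24751 UMIs. The log2 ratio was 0.95 and the plain ratio 1.94 (1.89 to 1.98). In granule-stage neutrophils it was 1097 CPM in control (1077 to 1117) and 2063 CPM in GC (2036 to 2090), with a log2 ratio of 0.91 and a plain ratio of 1.88 (1.84 to 1.92). The median log2 ratio of all genes over the minimum was 0.28 in mature and 0.02 in granule-stage neutrophils. The typical measured gene of the mature class thus also had a somewhat higher CPM in GC. As CPM is a share of the class total, this is not a rise of the class as a whole. The summed mature neutrophil markers of that class were 363915 CPM in control and 277341 CPM in GC. The highest single cell held at most 0.403% of the UMIs of its library in either class.

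This difference appeared in each neutrophil cluster with at least 20 cells of both trabecular libraries. In the 5 granule-stage clusters of this kind the log2 ratios ran from 0.75 to 1.05. Summed over them the levels were 989 CPM in control and 1603 CPM in GC, a log2 ratio of 0.69, while the other 3 granule-stage clusters each held mostly cells of 1 library. In the largest control cluster of mature neutrophils the levels were 1533 CPM in 1086 control cells and 4127 CPM in 52 GC cells, a log2 ratio of 1.43. Mature clusters with at most 1 control cell ranged from 2228 to 3098 CPM, and another control cluster, of 334 control and 11 GC cells, had 1587 CPM in control. After thinning to 1000 UMIs, 77.5% (75.3 to 79.7) of control and 92.8% (91.6 to 93.9) of GC mature neutrophils had a UMI of Alox5ap, against 2.37% of control B cells and 3.19% of GC erythroid cells. Without thinning the shares were 98.3% and 98.9%.

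**Figure D3:**
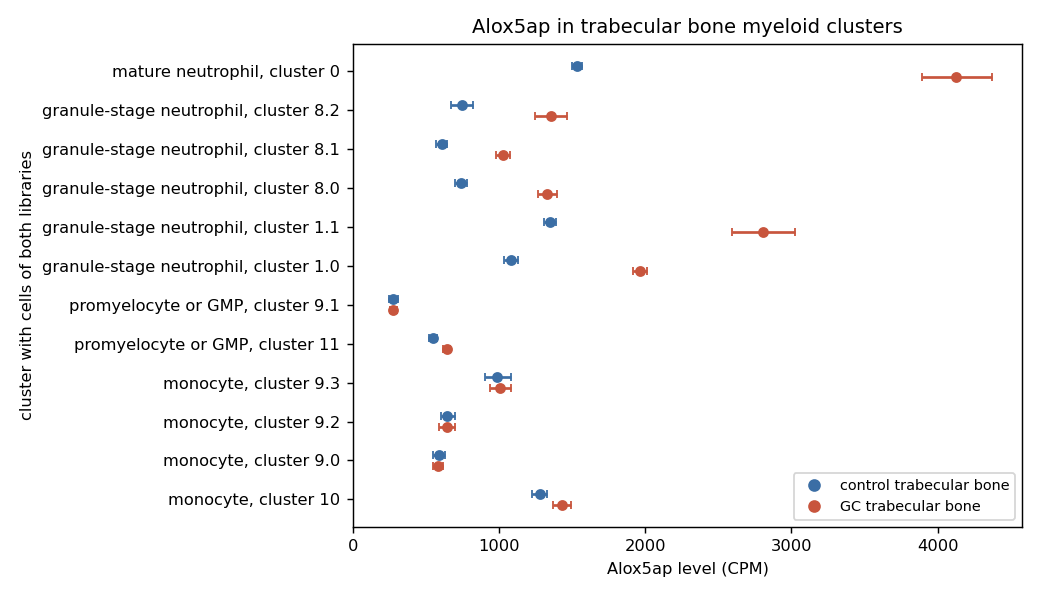
Alox5ap in CPM in 12 myeloid clusters of trabecular bone that hold cells of both libraries, control against GC, with exact Poisson 95% intervals. GC is above control in the neutrophil clusters, for example 4127 against 1533 CPM in the largest control cluster of mature neutrophils, and nearly equal in monocytes.

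By ratio of CPM, the Alox5ap difference was smaller in other trabecular classes, and it was not seen in callus. Trabecular monocytes had 900 CPM in control and 918 CPM in GC (ratio 1.02, 0.978 to 1.06), and promyelocytes or granulocyte-monocyte progenitors had 459 and 510 CPM (1.11, 1.05 to 1.18). Mast cells or basophils had 1287 and 1989 CPM (1.55, 1.36 to 1.76), with the higher neutrophil markers given above. Erythroid cells had 21.4 and 32.9 CPM (1.54, 1.15 to 2.07). In that class the median log2 ratio of all genes was -0.60, and hemoglobin made up 36.8% of control and 58.7% of GC UMIs. Relative to its class, the erythroid value was thus not small. Trabecular barcodes without cells held 563 CPM of Alox5ap in control and 743 CPM in GC, and the part of this free RNA was not tested. In callus no neutrophil or monocyte ratio was above 1. Granule-stage neutrophils had 1307 CPM in control and 1027 CPM in GC (0.785, 0.692 to 0.891), mature neutrophils 628 and 539 CPM (0.858, 0.783 to 0.940) and monocytes 825 and 692 CPM (0.839, 0.782 to 0.900). Within the mature cluster that held most GC cells the levels were 551 and 535 CPM. Conventional dendritic cells had 489 and 393 CPM and macrophages 268 and 278 CPM. Whether the tissues differ in their GC ratio could not be tested with 1 library each.

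Alox5, which encodes 5-lipoxygenase itself, did not follow its partner. Trabecular granule-stage neutrophils had 125 CPM in control and 122 CPM in GC (ratio 0.976, 0.904 to 1.05) and mature neutrophils 127 and 110 CPM (0.864, 0.787 to 0.949). Mast cells or basophils were highest, with 259 and 255 CPM (72 and 86 UMIs). In callus the gene was nearly confined to neutrophils, with 64.4 CPM in control and 39.2 CPM in GC mature cells (132 and 55 UMIs, ratio 0.609, 0.436 to 0.840) and 53.6 and 87.9 CPM in granule-stage cells (20 and 43 UMIs, ratio 1.64, 0.945 to 2.95). Callus monocytes had 2 UMIs of Alox5 in control and 0 of 1932764 UMIs in GC, for which the exact interval allows up to 1.91 CPM. The same cells held 1962 and 1338 UMIs of Alox5ap, so they had RNA for FLAP with next to none detected for 5-lipoxygenase. Trabecular monocytes had 25 and 48 UMIs of Alox5.

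Ltb4r1, the leukotriene B4 receptor, was a gene of granule-stage neutrophils in trabecular bone, with 386 CPM in control and 380 CPM in GC (4110 and 4095 UMIs). The ratio of 0.985 (0.944 to 1.03) makes it one of the most even values of the set. Promyelocytes or granulocyte-monocyte progenitors had 178 and 148 CPM (0.834, 0.754 to 0.924), monocytes 104 and 97.6 CPM and mature neutrophils 93.1 and 96.5 CPM. In the mature cluster of 1086 control and 52 GC cells it was 67.7 CPM in control and 131 CPM in GC (326 and 36 UMIs, log2 ratio 0.91). In both libraries the granule stage as a class thus exceeded the progenitors before it and the mature cells after it. Callus had much less, with 58.9 and 53.2 CPM in granule-stage neutrophils. In callus monocytes 83 UMIs in control and 29 in GC gave a ratio of 0.430 (0.272 to 0.663), which after adding 5 CPM fell just short of the 2-fold rule, and within shared clusters passed it at a log2 ratio of -1.07.

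Anxa1, the annexin linked to glucocorticoid action, was not called higher in GC in any class. In trabecular granule-stage neutrophils it was 2757 CPM in control (2725 to 2789) and 2257 CPM in GC (2229 to 2286), a ratio of 0.819 (0.805 to 0.833). In mature neutrophils it was 845 and 777 CPM (0.919, 0.887 to 0.952), in monocytes 394 and 385 CPM (0.976, 0.916 to 1.04) and in promyelocytes or granulocyte-monocyte progenitors 513 and 563 CPM (1.10, 1.04 to 1.16). The widest ratio above 1 was in mast cells or basophils, 1442 and 2291 CPM from 29 and 40 cells (1.59, 1.41 to 1.80), where Alox5ap had a like ratio and the neutrophil markers were higher in GC, as given above. Summed over the granule-stage clusters filled by both libraries the levels were 2964 and 2498 CPM. The direction turned in the mature neutrophil cluster shared by both, to 624 CPM in control and 747 CPM in GC (interval of the ratio 1.03 to 1.38). That cluster held 1086 control cells and 52 of the 2000 GC cells, with 3005 and 205 UMIs.

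Callus Anxa1 was nearly the same in both conditions. Granule-stage neutrophils had 463 and 466 CPM, mature neutrophils 46.3 and 46.4 CPM and monocytes 41.2 and 42.9 CPM, so none of these 3 ratios was over 1.04. The granule-stage ratio sets largely different clusters against each other. Osteoclasts had 262 CPM in control and 240 CPM in GC, stromal cells 312 and 260 CPM, chondrocytes 176 and 165 CPM and hypertrophic chondrocytes 164 and 151 CPM. Across the 12 callus classes over the minimum the ratio lay between 0.834 and 1.09. The intervals of the largest classes were narrow, 0.906 to 0.973 in chondrocytes, and those of small classes wide, 0.628 to 1.64 in conventional dendritic cells.

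The calls of lower Anxa1 in trabecular T or NK cells and in stem or progenitor cells rested on few cells. In T or NK cells it was 195 CPM in control and 35.6 CPM in GC (72 and 52 UMIs), but 46 of the 72 control UMIs and 30 of the 52 GC UMIs were in 1 cell each. Without the highest cell of each library the log2 ratio was -1.95, and without the 2 highest it was -1.46. In stem or progenitor cells it was 187 and 79.7 CPM (88 and 54 UMIs), and the log2 ratio of -1.18 became -0.57 without the highest cell and -0.02 without the 2 highest. In both classes the summed level of the granule-stage neutrophil markers was higher in control: 32430 against 5373 CPM in T or NK cells and 17204 against 3953 CPM in stem or progenitor cells, with 0 of 14 markers at 0 in either library. Trabecular barcodes without cells held 772 CPM of Anxa1 in control (694 to 856) and 399 CPM in GC (346 to 458). The part of these markers and of this free RNA in the Anxa1 values was not tested.

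Fpr1 and Fpr2, the receptors for annexin A1 and for formyl peptides, were neutrophil genes in both tissues. In trabecular mature neutrophils Fpr1 was 154 CPM in control and 177 CPM in GC (ratio 1.16, 1.07 to 1.25) and Fpr2 was 258 and 276 CPM (ratio 1.07). Their log2 ratios of 0.20 and 0.09 were under the median of 0.28 over all genes of that class. In granule-stage cells Fpr1 was 56.6 and 53.1 CPM and Fpr2 was 256 and 214 CPM (0.834, 0.789 to 0.882). With only clusters filled by both libraries kept, the Fpr1 ratios moved by over 1.5 times. Summed over 5 granule-stage clusters Fpr1 was 35.2 CPM in control and 18.7 CPM in GC (interval of the ratio 0.428 to 0.656). These clusters were unequally filled, with 323 control and 27 GC cells in 1 and 183 and 336 in another. The part of this mix was not tested. In the mature cluster with 52 GC cells Fpr1 was 160 and 331 CPM (log2 ratio 1.03, past the fold). Fpr2 in the same clusters was 219 and 163 CPM in granule-stage and 255 and 324 CPM in mature cells. Hence Fpr1 was lower in the granule stage than in mature cells in both libraries, whereas Fpr2 differed less between the stages. Promyelocytes or granulocyte-monocyte progenitors had at most 1.72 CPM of Fpr1 and 6.28 CPM of Fpr2.

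In callus mature neutrophils both receptors were lower in GC, without reaching the 2-fold rule. Fpr1 was 102 CPM in control and 64.9 CPM in GC (210 and 91 UMIs, ratio 0.634, 0.490 to 0.814), and Fpr2 was 293 and 161 CPM (601 and 226 UMIs, 0.550, 0.470 to 0.642). In the cluster that held most GC cells, Fpr2 was 219 CPM in control and 152 CPM in GC. The thinned share of cells with a UMI of Fpr2 was 22.8% (20.5 to 25.2) in control and 14.0% (11.8 to 16.6) in GC, against 0% of B cells in both libraries, which with 598 and 349 thinned B cells allows shares of up to 0.615% and 1.05%. Callus granule-stage neutrophils had 110 and 129 CPM of Fpr2 (41 and 63 UMIs), with an interval of the ratio from 0.779 to 1.78.

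**Figure D4:**
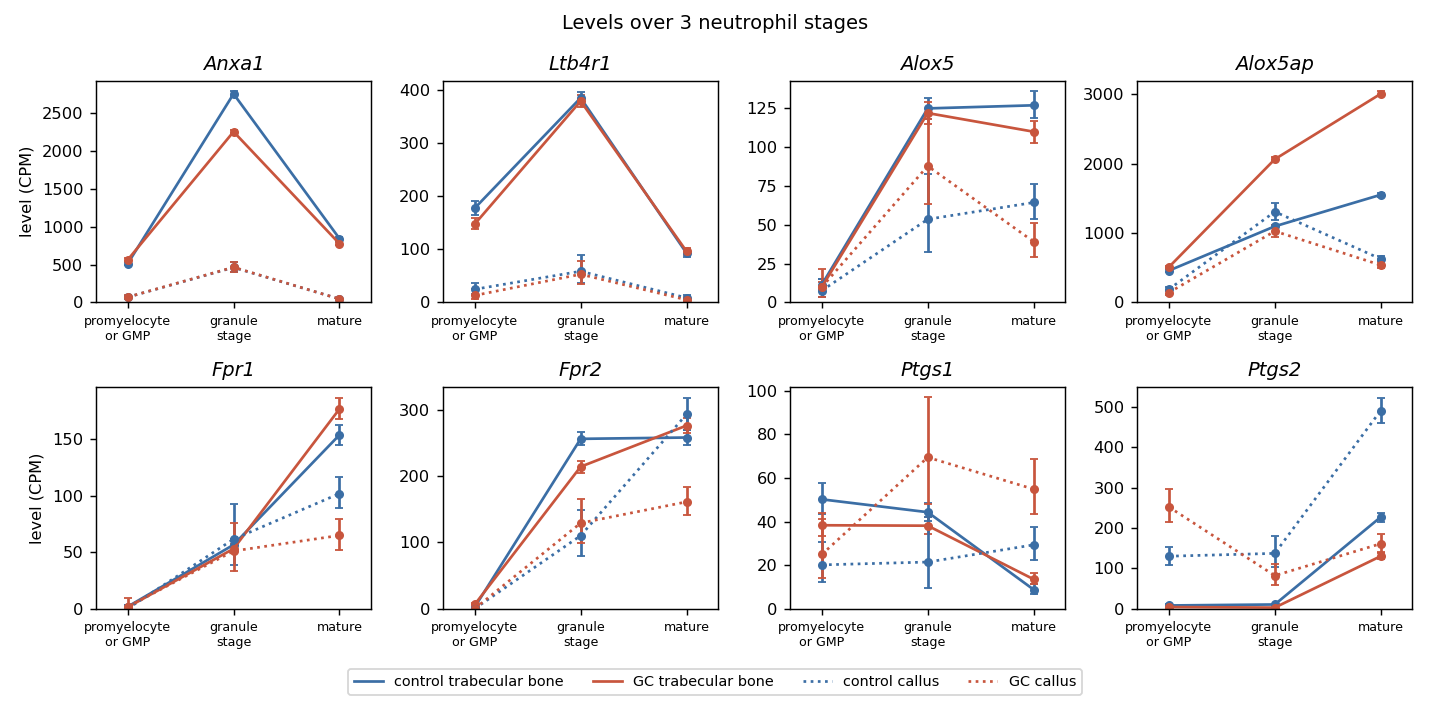
Levels in CPM of 8 of the genes along promyelocytes or granulocyte-monocyte progenitors, granule-stage and mature neutrophils, with control in blue, GC in red, trabecular bone as solid and callus as dotted lines. Ltb4r1 and Anxa1 peak at the granule stage in trabecular bone, Fpr1 and Ptgs2 are highest in its mature cells, and the Alox5ap lines of the trabecular libraries separate after the progenitor stage.

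Fpr2 in trabecular monocytes was called higher in GC. It was 10.0 CPM in control (7.41 to 13.2, 49 UMIs in 33 of 289 cells) and 41.1 CPM in GC (35.7 to 47.0, 212 UMIs in 98 of 310 cells), with a log2 ratio of 1.62 and a plain ratio of 4.10 (2.99 to 5.71). The highest cell held 5 and 10 UMIs, and the log2 ratio stayed at 1.66 without the 2 highest. It passed the fold in 17 of 17 alternatives, from 1.02 to 1.93. Fpr1 in the same cells was 2.66 and 9.49 CPM from 13 and 49 UMIs (ratio 3.57, 1.91 to 7.18; log2 ratio 0.92, under the fold). Both levels were far under those of neutrophils.

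The monocyte difference was concentrated in 1 of 4 monocyte clusters. In that cluster of 174 control and 166 GC cells, Fpr2 was 20.7 CPM in control and 107 CPM in GC, and in the others it was between 3.39 and 4.07 CPM in control and between 8.19 and 23.5 CPM in GC. Granule-stage neutrophil markers were also higher there, with a summed level of 8007 CPM in control and 20737 CPM in GC, 6 of 11 measurable markers past 2-fold and 0 of 14 at 0, and the mature neutrophil markers were at 5588 and 9586 CPM. Monocyte markers were at 10793 and 10179 CPM. Over all monocytes the granule-stage markers were at 8600 and 13426 CPM. The part of neutrophil RNA in the Fpr2 value was not tested. In callus monocytes Fpr2 was 12.2 and 12.4 CPM (ratio 1.02, 0.567 to 1.81).

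The most alike gene to each member was found by Pearson correlation of log2(CPM + 5) over 29 classes of both tissues, among 5137 genes that reached 100 CPM in some class. These are descriptions over classes that share libraries and depth. Fpr1 and Fpr2 were each other's most alike gene (r = 0.955), the head-to-head pair shown above. Next came Dhrs9 (0.948) and Rdh12 (0.945) for Fpr1, and Slfn4 (0.953) and Asprv1 (0.934), a mature neutrophil marker used to name classes, for Fpr2. For Ptgs2 they were Spp1 (0.896), the osteopontin gene and itself a hypertrophic marker here, Bnip3 (0.891) and Xylt1 (0.862), which starts glycosaminoglycan chains. For Ptges they were Arsi (0.921), Cxcl14 (0.920) and Klhl13 (0.911), and for Pla2g4a they were Hk2 (0.834), Csgalnact2 (0.834) and Ctdspl (0.810).

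On the myeloid side, the genes alike to Alox5ap included Taldo1 (0.904), of the pentose phosphate pathway, and Ccl6 (0.884). Alox5 was most like the histidine decarboxylase gene Hdc (0.915), Padi4 (0.883), both among the class markers, and Slc2a3 (0.877). Those alike to Ltb4r1 included Ifitm6 (0.864) and Chil3 (0.860), both granule-stage markers. Anxa1 was most like Flot2 (0.863), Znhit1 (0.821) and Mapk3 (0.813). Of the 9 genes alike to Ptgs2, Ptges and Pla2g4a 6 peaked in callus chondrocytes of either class. They were picked for likeness to genes that peak there, so this count is no separate result.

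Other genes of the same pathways were read in neutrophils of both stages together and in monocytes and macrophages together. Over all genes with enough UMIs in these 4 groups, between 0.388% and 3.62% were called higher in GC and between 0.299% and 2.89% lower. The median log2 ratios of the 6 pathway lists ran from -1.36, for a list with 1 measurable gene, to 0.60, and that over all genes was at most 0.10. Of 9 phospholipase genes in the files, between 2 and 4 had enough UMIs in each of these 4 groups and 0 passed the 2-fold rule. Pla2g7, which inactivates platelet-activating factor, was the one over 100 CPM, with 271 CPM in control and 464 CPM in GC callus monocytes and macrophages (ratio 1.71, 1.56 to 1.88). Of 11 prostanoid synthase and breakdown genes, between 3 and 7 were measurable, and 1 passed: the thromboxane synthase gene Tbxas1 was lower in trabecular monocytes, 20.6 CPM in control and 7.17 CPM in GC (log2 ratio -1.08, ratio 0.347, 0.231 to 0.511).

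Of 11 prostanoid receptor and transport genes, between 2 and 4 were measurable in each group, and 3 calls were made. In callus monocytes and macrophages, Ptger2, a receptor for prostaglandin E2, was higher in GC, with 12.2 CPM in control and 34.7 CPM in GC (36 and 82 UMIs, log2 ratio 1.21). So was Ptgir, the prostacyclin receptor gene, with 14.9 and 44.4 CPM (44 and 105 UMIs, log2 ratio 1.31). Both receptors signal through cyclic AMP. Ptger4, the other prostaglandin E2 receptor of this kind, was lower in trabecular neutrophils, 15.6 CPM in control and 5.11 CPM in GC (277 and 97 UMIs, log2 ratio -1.03). In callus monocytes and macrophages its values were 26.0 and 11.8 CPM, a log2 ratio of -0.88.

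Of 13 other lipoxygenase and leukotriene genes, between 2 and 5 were measurable and 1 passed: Ggt5, which converts leukotriene C4 to D4, was higher in trabecular neutrophils, 16.9 CPM in control and 47.5 CPM in GC (299 and 902 UMIs, log2 ratio 1.26). Lta4h, which makes leukotriene B4, was 204 and 136 CPM there (ratio 0.667, 0.634 to 0.702), beside the Alox5ap ratios of 1.88 and 1.94. Cyp4f18, which breaks leukotriene B4 down in neutrophils, was 230 and 274 CPM in trabecular bone and 1863 and 1860 CPM in callus neutrophils. Of 9 annexins and partners, 7 to 9 were measurable and 0 passed in any group. Of these, Anxa2 was 708 and 831 CPM in trabecular and 183 and 120 CPM in callus neutrophils. Of 8 other formyl peptide and pro-resolving receptor genes, 1 or 2 were measurable, and Gpr132, a receptor for oxidized lipids and lactate, was lower in callus neutrophils, 106 CPM in control and 38.1 CPM in GC (256 and 72 UMIs, log2 ratio -1.36). In trabecular neutrophils Gpr132 was 44.6 and 20.2 CPM, a log2 ratio of -0.97.

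As a reading of exposure, 8 glucocorticoid response genes were measured in the same cells. In trabecular neutrophils 4 of 8 were higher in GC, Fkbp5, Klf9, Tsc22d3 and Zbtb16, with Fkbp5 at 13.1 CPM in control and 72.4 CPM in GC, and the median log2 ratio was 0.97 against 0.10 for all genes. In trabecular monocytes 3 of 8 were higher. In callus neutrophils 0 of 7 measurable genes were higher and Dusp1 was lower, 2588 and 1017 CPM, with a median of -0.03 against 0.02 for all genes, and Fkbp5 was 11.1 and 23.8 CPM (27 and 45 UMIs). Callus monocytes and macrophages had 0 calls among 7. Read by class, callus mature neutrophils alone had 1 of 6 higher and 1 lower, with summed levels of 3430 CPM in control and 1711 CPM in GC. Callus chondrocytes had 1 of 8 higher and 1 lower, at 1208 and 2015 CPM. Hypertrophic chondrocytes had 0 calls among 8, at 1792 and 2788 CPM. The pooled groups thus do not stand for all callus classes. Dissociation and immediate early genes were mostly at or below control in the pooled callus groups: 1 higher (Atf3) and 4 lower (Egr1, Fos, Ier3 and Junb) of 9 in neutrophils, and 4 lower of 11 in monocytes and macrophages. By class, callus plasma cells had 5 of 5 higher, with sums of 553 and 1961 CPM. Sums were also higher in hypertrophic chondrocytes (10505 and 11594 CPM) and promyelocytes or granulocyte-monocyte progenitors (1671 and 1883 CPM). In all other compared callus classes the sums were lower in GC. In trabecular neutrophils 1 of 11 was lower (Atf3), and in trabecular monocytes 1 of 11 (Hspa1a). Ptgs2 is itself an immediate early gene.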

How the data were processed

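Single-cell RNA-Seq of 4 libraries was analysed, grouped by the tissue and treatment of their labels. The deposited matrices hold UMI counts per gene and barcode, which the authors made with Cell Ranger and did not normalize. The submitters' processing notes list Cell Ranger 5.0.1, Seurat 3.2.0 and mm10, whereas the file headers name version 4 of Cell Ranger. That tool counts only reads assigned to a single gene, so reads shared by close relatives such as the formyl peptide receptors are lost. The GC callus matrix was taken as already called. In the others, the 3000 largest barcodes were taken and cells had more UMIs than 10% of their 99th percentile, or at least 500 UMIs and a profile unlike that of the barcodes ranked 45001 to 90000 (Monte Carlo test, 10000 draws, adjusted p of at most 0.01).

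Cells needed at least 200 genes and at most 10% mitochondrial UMIs, and those with the highest doublet scores were removed at 0.8% per 1000 cells. Control and GC cells of each tissue were clustered jointly (2000 variable genes, 30 components, 15 neighbors, Leiden resolution 1), mixed clusters of at least 60 cells were divided again at resolution 0.5, and clusters were named by marker genes. The genes described and their pathway lists were left out of clustering. Counts were summed per class and library. The software was Python 3.11.15, numpy 2.4.6, scipy 1.17.1, python-igraph 0.11.9, leidenalg 0.10.2 and matplotlib 3.10.9, and the calling and ratio steps were tested on simulated data. Gene positions came from GENCODE on GRCm38 and promoters from RefSeq.

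The genes and lists were chosen with earlier results of these data known. Named are all 10 genes, pathway genes past 2-fold (at most 3 per direction and class) or over 100 CPM in a class, the 3 most alike genes of each, and examples from the control lists. Some of the alike genes are not reported here. Genes over 100 CPM were given by examples rather than in full. The alternatives covered cell calling, filters, doublets, clustering, denominator, depth, pseudocount and minimum.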

Additional observations from a re-analysis of the deposited data

Results flagged for a closer look

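In 7 pairs of gene and class the log2 ratio of GC over control lay on one side of 0 in callus and on the other in trabecular bone, with intervals of the ratios that did not overlap. Each value compares 1 library with 1 library, and the difference between the tissues was not tested.

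Alox5ap, which encodes FLAP, made up 3 of them, all along the neutrophil line. Its log2 ratio was -0.35 in callus and 0.91 in trabecular granule-stage neutrophils. No callus cluster of that class held at least 20 cells of each library. In mature neutrophils it was -0.22 in callus and 0.95 in trabecular bone. Promyelocytes or granulocyte-monocyte progenitors had -0.40 in callus and 0.15 in trabecular bone. Cells of that class had a median of 1183.0 UMIs in callus and 24320.0 in trabecular bone, so the tissues set cells of unlike depth against each other. The median log2 ratio of all genes in the class was -0.16 in callus and 0.03 in trabecular bone.

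The formyl peptide receptors followed the same order in mature neutrophils. Fpr1 had a log2 ratio of -0.62 in callus and 0.20 in trabecular bone, and Fpr2 had -0.84 and 0.09. The median log2 ratio of all genes over the minimum in that class was 0.00 in callus and 0.28 in trabecular bone. Relative to this median both receptors were thus lower in GC in both tissues.

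Ptgs2 differed in direction in 2 classes. In monocytes its log2 ratio was -0.15 in callus and 0.34 in trabecular bone. In promyelocytes or granulocyte-monocyte progenitors it was 0.93 in callus, from 136 and 152 UMIs, and -0.53 in trabecular bone, from 32 and 21 UMIs. In callus the chondrocyte markers of that class were at 3514 and 3259 CPM, and their part was not tested. None of the 14 log2 ratios reached the 2-fold rule.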

How the results depend on the processing

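Of 72 counts of called pairs computed under other settings 53 stayed within 1.5 times the reported count. Pairs called higher in callus, 0 as reported, came to 1 with at least 500 genes per cell, with ratios centred on the median ratio, and with cells thinned to 1000 UMIs, and to 2 with each library clustered alone, with the mean over cells of each cell's CPM, and with a minimum of 20 UMIs. Pairs called lower in callus, 3 as reported, came to 5 at resolution 2, to 5 when the genes and their pathway lists were kept in clustering, to 7 with each library alone, to 6 with a pseudocount of 1 CPM and to 1 after thinning. In trabecular bone the 2 higher pairs became 4 with the mean per cell, 0 after thinning and 1 with a minimum of 100 UMIs, and the 3 lower pairs became 1 without doublet removal, 0 with each library alone and 0 after thinning. The 2 added settings were chosen after seeing the data. Without the cell with most UMIs of a gene in each library, the lower pairs came to 5 in callus and 1 in trabecular bone, and keeping clusters with at least 20 cells of each library left all 4 counts within 1.5 times but not the same pairs: Ptgs2 in trabecular granule-stage neutrophils was no longer past the fold (-0.53) and in mast cells or basophils had no value, while Ptgs2 (-2.17), Alox5ap (1.43) and Fpr1 (1.03) in trabecular mature neutrophils and Ltb4r1 in callus monocytes (-1.07) passed it. Thinning left fewer UMIs and so fewer pairs over the minimum. Of 1679 log2 ratios under other settings 0 of those called changed sign. Of those not called 138 differed in sign from the reported value, where a ratio of 0.00 was counted as a sign of its own. The calls of lower Ptgs2 in osteoclasts and stromal cells each held under all settings that gave a value but 1. The call of lower Anxa1 in T or NK cells held in 15 of 16. It had no value without the highest cell of each library, because too few UMIs remained. That of lower Anxa1 in stem or progenitor cells held in 12 of 16. Where a count moved for another reason the cause was not tested. No paired analysis was possible because each tissue and condition has 1 library. Counting intervals leave out the spread between mice, and treatment cannot be told apart from library preparation.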
